A study of Mus musculus with 12 samples.

Results

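The TRIM (tripartite motif) genes were examined in peritoneal macrophages with and without IκBζ, the nuclear inhibitor-of-NF-κB family protein encoded by Nfkbiz. A gene was a member if an array probe set carried exactly 1 gene symbol and that symbol was Trim followed by a number and, in some cases, a letter. This rule gave 58 of the 19938 genes measured, each through 1 probe set. The members were divided by what is known of them into 10 genes known to respond to interferon (Trim12a, Trim12c, Trim14, Trim21, Trim25, Trim26, Trim30a, Trim30d, Trim34a and Trim56) and 48 others. The 48 are the members left off that list, and some of them may respond to interferon too. The list was drawn up with earlier results of these data known, so counts over it are a description and not a test of it. Expression was measured on 12 one-colour Affymetrix whole-transcript arrays in 4 groups of 3: Nfkbiz-/- cells given lipopolysaccharide (LPS, the endotoxin of Gram-negative bacteria; 1 µg/ml for 4 h), untreated Nfkbiz-/- cells, wild-type C57Bl/6 cells given the same LPS, and untreated wild-type cells. All mice were female, and all cells were washed from the peritoneum and plated for 2 h before treatment; the labels name no sort and no added interferon. Nfkbiz-/- is abbreviated KO and wild type WT. The labels do not say that replicates came from separate mice, so the spread behind each p-value is that among these arrays. It may not be the spread among mice.

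TRIM proteins typically share a RING finger, B-box zinc fingers and a coiled coil, and most are ubiquitin ligases whose C-terminal domain chooses the target. Many take part in antiviral defence, either by binding virus particles or by ubiquitinating sensors and adaptors of the RIG-I, MDA5, STING and Toll-like receptor pathways. In macrophages, LPS signals through TLR4 and the adaptor TRIF to induce interferon-β, which acts back on the cells through its receptor. Many promoters of interferon-stimulated genes hold the interferon-stimulated response element (ISRE), a pair of GAAA letters through which that signal acts. Several TRIM genes belong to that set and others are not known to respond to interferon.

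The ISRE letters, spelled GAAA, then 2 bases of any kind, then GAAA (TTTC in place of GAAA on the other strand), were searched on both strands of RefSeq promoters running from 250 bases before to 50 after each annotated start. A promoter was given for 46 of the 58 members. The ISRE letters stood in 7 of the 9 interferon-responsive members that had a promoter and in 1 of the 37 other members, Trim2. They stood in 3.89% of the promoters of all 15562 measured genes that had one. With at most 1 mismatch at the 8 fixed letters, Trim25 and Trim56 matched as well, which made 9 of 9, against 14 of 37 other members and 35.4% of all genes. Trim14 had no promoter in the table. The windows around the ISRE letters are shown because these letters were shared by the interferon-responsive members without having been used to choose them (RefSeq, build GRCm38.p6, 5′ to 3′ on the strand of the gene, each window ending at most 30 bases past the start). Capitals mark the ISRE letters.
Trim12a, chr7:104315466-104315510, minus strand: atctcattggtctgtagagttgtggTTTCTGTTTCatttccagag
Trim12c, chr7:104353344-104353403, minus strand: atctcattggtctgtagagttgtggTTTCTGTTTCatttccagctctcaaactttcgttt
Trim21, chr7:102565453-102565494, minus strand: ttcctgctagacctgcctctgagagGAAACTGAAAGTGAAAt
Trim26, chr17:36836961-36837026, plus strand: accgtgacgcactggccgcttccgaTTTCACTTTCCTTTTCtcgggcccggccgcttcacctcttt
Trim30a, chr7:104465195-104465254, minus strand: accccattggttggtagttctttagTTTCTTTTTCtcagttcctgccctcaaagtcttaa
Trim30a, second annotated start, chr7:104446096-104446148, minus strand: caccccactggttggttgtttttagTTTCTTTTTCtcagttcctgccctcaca
Trim30d, chr7:104507856-104507915, minus strand: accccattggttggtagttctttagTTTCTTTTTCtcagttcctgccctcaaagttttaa
Trim34a, chr7:104244442-104244486, plus strand: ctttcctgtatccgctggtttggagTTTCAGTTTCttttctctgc

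Trim21 and Trim26 each held overlapping matches, seen as the longer run of capitals. The letters began past the annotated start in Trim12a (base 11), Trim21 (base 14), Trim34a (base 11) and the second Trim30a window (base 3). In the other windows they lay before it. The Trim2 match, which began at base 29, is not shown. Over 60 bases around the letters Trim12a and Trim12c were identical at 57, and Trim30d and the first Trim30a window at 59. The second Trim30a start, which holds the same letters, was identical to Trim30d at 45. These are pairs of recent mouse duplicates, so their probe sets may share signal and their values are not independent of each other. Their ISRE matches are not independent either, and the 7 of 9 above counts both genes of each pair. The γ-activated sequence TTCNNNGAA stood in 0 of the 9 interferon-responsive promoters, in 5 of 37 others and in 9.01% of all genes. The NF-κB consensus stood in 0 of the 46 member promoters and in 5.74% of all genes. A match is a description of letters and says nothing of binding.

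Of the 58 members, 12 lie on chromosome 7 and 6 of these are interferon-responsive. Among protein-coding genes there, Trim6, Trim34a, Trim5, Trim12a, Trim34b and Trim12c follow one another, and so do Trim30b, Trim30c, Trim30a and Trim30d. Trim5, Trim30b, Trim30c and Trim34b had no probe set of their own. A run on chromosome 17 holds Trim26, Trim15, Trim10, Trim40 and Trim31.

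Array medians lay between 110.4 and 118.7 intensity units, and arrays of 1 group correlated at 0.984 to 0.994. Nfkbiz itself read 1568, 1335 and 1634 on the KO LPS arrays, against 3371, 3786 and 3079 on the WT LPS arrays (log2 difference -1.17, limma adjusted p = 7.23e-05). Its signal also rose with LPS in KO cells, from 267, 286 and 274 on the untreated KO arrays (2.45, limma adjusted p = 2.41e-08). The labels do not say where its probes lie relative to the deletion, so these values are no check of the knockout. The 6 macrophage markers summed to 47475 to 49430 on KO LPS arrays, 54762 to 57294 on KO untreated arrays, 49039 to 49810 on WT LPS arrays and 55530 to 57352 on WT untreated arrays, and all 6 were above the median gene in every group. The 3 markers of large peritoneal macrophages (Gata6, Timd4 and Icam2) summed to 4031 to 4259 in KO LPS cells and 2708 to 3976 in untreated KO cells, against 3202 to 3877 in WT LPS cells and 1873 to 2220.0 in untreated WT cells, so their sum was higher in KO than in WT cells and, within KO and within WT, higher with LPS, each without overlap; their part in the results was not tested. Of the 3, limma called Icam2 higher with LPS in both genotypes and Gata6 lower with LPS in KO cells, and none between genotypes. Gata6 ran against the sum after LPS, averaging 1178.5 in KO LPS cells and 1970 in WT LPS cells. Timd4 averaged 1494 and 361 in these groups, and Icam2 1484.5 and 1133. Mast cell markers summed to 347 to 1905 in KO LPS cells and 612 to 2178 in untreated KO cells, against 379 to 627 in WT LPS cells and 460.4 to 642 in untreated WT cells; KO replicates 1 and 3 were high in both treatments, and the part of mast cells in the results was not tested. In bulk samples such as these, fewer cells of a type and less RNA per cell cannot be told apart.

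A pair of arrays stood apart from their groups in interferon-stimulated genes. For the interferon-responsive members, LPS counts and medians are given with and without them. The mean log2 level of 26 measured interferon-stimulated genes that are not TRIM genes (Ifit1, Rsad2, Mx1, Irf7 and the like) was 12.19, 12.20 and 12.38 in KO LPS cells, 9.14, 8.86 and 10.50 in untreated KO cells, 11.40, 12.13 and 9.90 in WT LPS cells, and 8.89, 8.80 and 8.21 in untreated WT cells. WT LPS replicate 3 was thus low and untreated KO replicate 3 high. Nfkbiz, itself an LPS-induced gene, was 3079 on WT LPS replicate 3 against 406 to 463 on the untreated WT arrays.

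All 10 interferon-responsive TRIM genes rose with LPS in KO cells, 8 of them at least 2-fold, with a median log2 difference of 1.51 (limma, adjusted p under 0.05 over all genes tested). Among all genes 21.9% were called higher, 3.34% were called and at least 2-fold higher, and the median difference was 0.07. On the arrays, all 10 had every KO LPS value above every untreated KO value, which held for 28.3% of all genes. The next paragraphs take the members by their roles.

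**Figure D1:**
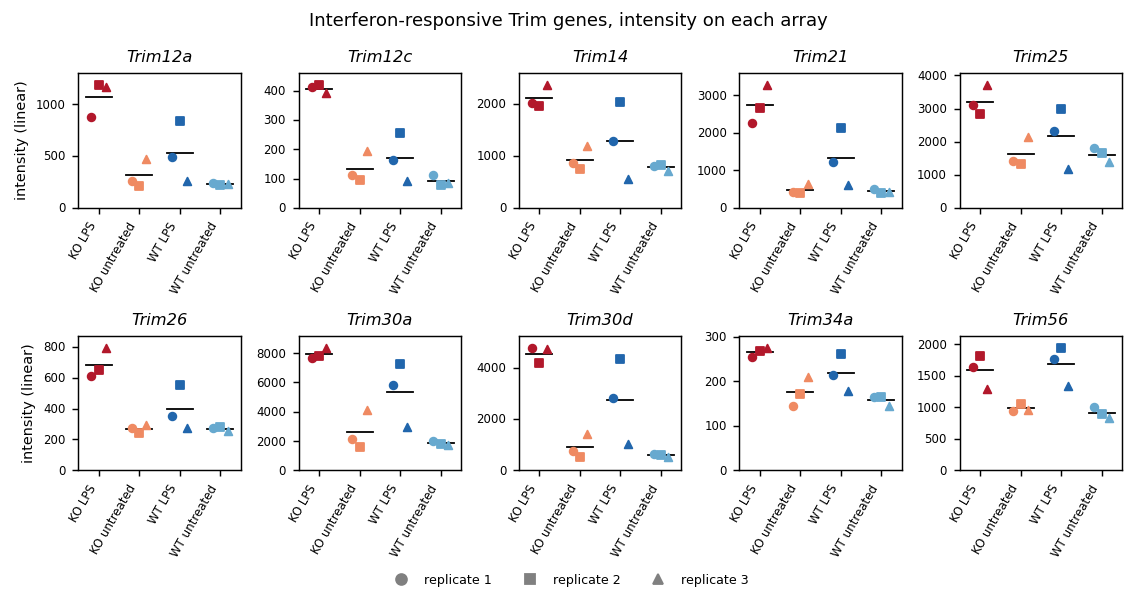
Intensity (linear scale from 0, vertical axis) of the 10 interferon-responsive TRIM genes on each of the 12 arrays, by group, with the replicate number as the marker shape and a black bar at the group mean. All KO LPS values lie above all untreated KO values in every panel, and the triangle of WT LPS replicate 3 is the lowest of its group in all 10.

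Trim21 is a cytosolic antibody receptor that directs antibody-coated viruses to the proteasome. It read 2270.4, 2667 and 3259 in KO LPS cells, against 415, 410.2 and 639 in untreated KO cells. In WT LPS cells it read 1235, 2123 and 621, against 498, 392 and 438 in untreated WT cells. LPS arrays were above the untreated arrays without overlap in both genotypes, but WT LPS replicate 3 lay close to the untreated range. With LPS the log2 difference was 2.50 (SE 0.35, limma adjusted p = 0.00014) in KO cells and 1.42 (SE 0.35, limma adjusted p = 0.00931) in WT cells.

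Trim30a, which in mice restrains Toll-like receptor signalling, read 7636, 7809.9 and 8358 in KO LPS cells, against 2116, 1587 and 4089 in untreated KO cells. In WT LPS cells it read 5842, 7251 and 2986, against 2019, 1802 and 1749 in untreated WT cells. Its highest untreated value was on KO replicate 3 and its lowest LPS value on WT replicate 3, and neither genotype's groups overlapped. In log2 units the LPS difference was 1.73 (SE 0.34, limma adjusted p = 0.00148) in KO cells and 1.44 (SE 0.34, limma adjusted p = 0.00701) in WT cells.

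Trim30d, its close duplicate, read 4771, 4164 and 4713 in KO LPS cells, against 755, 529.9 and 1430.3 in untreated KO cells. It read 2836, 4350.4 and 1022 in WT LPS cells, against 622, 579 and 537 in untreated WT cells. The same arrays were the extremes as for Trim30a, and again no groups overlapped between treatments. With log2 differences of 2.45 in KO cells (SE 0.45, limma adjusted p = 0.000958) and 2.01 in WT cells (SE 0.45, limma adjusted p = 0.00523), Trim30d was the only TRIM gene over 2 on that scale in WT cells.

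Trim12a and Trim12c are mouse relatives of primate TRIM5, the factor that binds incoming retroviral capsids. Trim12a read 870.2, 1178 and 1163 in KO LPS cells, against 263, 211 and 469.8 in untreated KO cells. It read 487, 837 and 263 in WT LPS cells, against 243, 221 and 227 in untreated WT cells. The groups did not overlap in either genotype, but in WT cells the spread among LPS arrays was wide. The log2 difference was 1.84 (SE 0.36, limma adjusted p = 0.00165) in KO cells, and in WT cells it was 1.04 (SE 0.36) and just missed the threshold (limma adjusted p = 0.0513). Without WT LPS replicate 3, Trim12a passed in WT cells (1.47, limma adjusted p = 0.0042), as it did without untreated KO replicate 2 or 3, whereas without WT LPS replicate 2 the value was 0.64 (limma adjusted p = 0.193).

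Trim12c read 412, 418 and 391 in KO LPS cells, against 112, 94.5 and 195 in untreated KO cells. It read 164, 255 and 93.6 in WT LPS cells, against 113, 79.4 and 84.5 in untreated WT cells. Here WT LPS replicate 3 fell inside the untreated WT range. With LPS the log2 difference was 1.68 (SE 0.33, limma adjusted p = 0.0015) in KO cells and 0.79 (SE 0.33, limma adjusted p = 0.0984) in WT cells, and the WT value was 1.16 without WT LPS replicate 3 (limma adjusted p = 0.00984) and 0.44 without WT LPS replicate 2 (limma adjusted p = 0.342).

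Trim34a, whose primate counterpart acts with TRIM5 against retroviral capsids, read 254, 269.6 and 276 in KO LPS cells, against 145, 172 and 210.1 in untreated KO cells. It read 213, 262 and 179 in WT LPS cells, against 165, 164 and 145 in untreated WT cells. Its change was small but the groups did not overlap in either genotype. In log2 units the LPS difference was 0.62 (SE 0.15, limma adjusted p = 0.00539) in KO cells and 0.45 (SE 0.15, limma adjusted p = 0.0403) in WT cells, and the WT call did not survive in 8 of 12 leave-one-array-out fits, with 0.31 to 0.58 and limma adjusted p up to 0.16.

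The ubiquitin ligases and adaptors of nucleic acid sensing came next. Trim25, which ubiquitinates the RNA sensor RIG-I, read 3094, 2839 and 3697 in KO LPS cells, against 1426, 1321 and 2148 in untreated KO cells. It read 2316, 2987 and 1178 in WT LPS cells, against 1797, 1656 and 1377 in untreated WT cells. The KO groups did not overlap, whereas WT LPS replicate 3 was lower than every untreated WT array. The log2 difference was 1.00 (SE 0.29, limma adjusted p = 0.0151) in KO cells and 0.33 (SE 0.29, limma adjusted p = 0.438) in WT cells. The WT value was 0.72 without WT LPS replicate 3 (limma adjusted p = 0.0255) and 0.046 without WT LPS replicate 2 (limma adjusted p = 0.931).

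Trim14, a mitochondrial adaptor that lacks a RING finger and joins the MAVS complex, read 2018, 1954 and 2348 in KO LPS cells, against 855, 753 and 1179 in untreated KO cells. It read 1289, 2031 and 546 in WT LPS cells, against 797, 833 and 711 in untreated WT cells. WT LPS replicate 3 was again below all untreated WT arrays. With LPS the log2 difference was 1.20 (SE 0.36, limma adjusted p = 0.0168) in KO cells and 0.53 (SE 0.36, limma adjusted p = 0.302) in WT cells, and the WT value was 1.05 without WT LPS replicate 3 (limma adjusted p = 0.00308) and 0.11 without WT LPS replicate 2 (limma adjusted p = 0.839). The KO calls of Trim14 and Trim25 were both lost without KO LPS replicate 3 or without untreated KO replicate 2, at limma adjusted p up to 0.057 and 0.0545, while the differences stayed at or above 1.06 and 0.87.

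Trim26, a ubiquitin ligase reported to act on the interferon regulator IRF3, read 609, 649 and 793 in KO LPS cells, against 271, 243 and 293 in untreated KO cells. It read 352, 555 and 274 in WT LPS cells, against 276, 279 and 257 in untreated WT cells. The KO groups were far apart and the WT groups overlapped through replicate 3. In log2 units the LPS difference was 1.34 (SE 0.20, limma adjusted p = 0.000252) in KO cells and 0.48 (SE 0.20, limma adjusted p = 0.103) in WT cells, and the WT value was 0.71 without WT LPS replicate 3 (limma adjusted p = 0.011) and 0.20 without WT LPS replicate 2 (limma adjusted p = 0.348).

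Trim56, which acts in the double-stranded DNA sensing pathway around STING, was the one of the 10 whose difference was not larger in KO cells. It read 1648, 1822 and 1294 in KO LPS cells, against 939, 1051 and 965 in untreated KO cells. It read 1762, 1946 and 1344 in WT LPS cells, against 1004, 902 and 835 in untreated WT cells. The LPS arrays were above the untreated arrays in both genotypes, with replicate 3 the lowest LPS array in each. The log2 difference was 0.68 (SE 0.15, limma adjusted p = 0.00323) in KO cells and 0.87 (SE 0.15, limma adjusted p = 0.000914) in WT cells.

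In WT cells 5 of the 10 were called higher with LPS (Trim21, Trim30a, Trim30d, Trim34a and Trim56), 3 of them at least 2-fold, with a median log2 difference of 0.83. Among all genes 9.53% were called higher, 2.31% were called and at least 2-fold higher, and the median was 0.04. Groups did not overlap for 6 of the 10, against 23.2% of all genes. Without WT LPS replicate 3 all 10 were called higher in WT cells, with a median of 1.11, while 8.68% of all genes were. In none of the settings tried was any of the 10 called lower in WT cells.

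**Figure D2:**
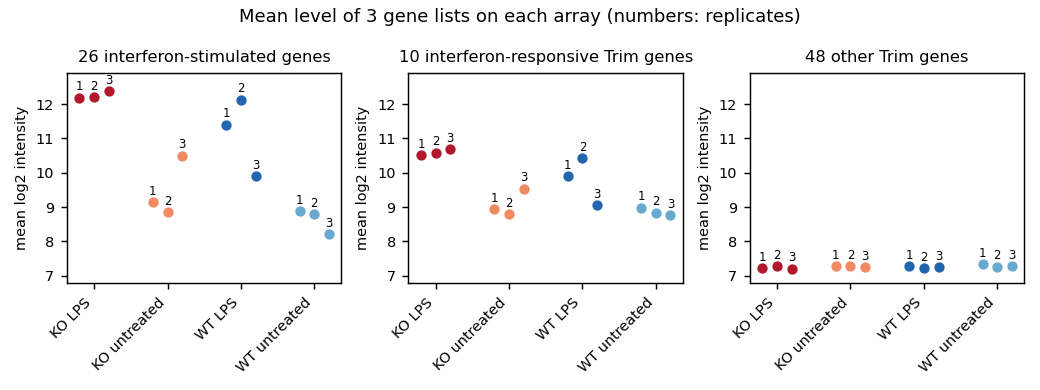
Mean log2 intensity (vertical axis) on each array (points numbered by replicate) of the 26 interferon-stimulated genes that are not TRIM genes, the 10 interferon-responsive TRIM genes and the 48 other TRIM genes, by group. The TRIM members follow the interferon-stimulated genes from array to array, at 9.90, 10.43 and 9.07 in WT LPS cells and 8.95, 8.80 and 9.54 in untreated KO cells, and the 48 other members lie between 7.21 and 7.34 on all arrays.

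The ordering of single arrays was shared by the interferon-responsive members. Among WT LPS arrays, replicate 2 was the highest and replicate 3 the lowest for 10 of the 10 and for 26 of the 26 interferon-stimulated genes, against 13 of the 48 other members and 17.1% of all genes. Replicate 3 was the lowest of the 3 for 26 of the 48 other members and 31.4% of all genes. It lay below the mean of the other two arrays by a median log2 difference of -1.14 for the interferon-responsive members, -1.54 for the interferon-stimulated genes and -0.03 for the other members. In untreated KO cells replicate 3 was the highest for 9 of the 10, all but Trim56, and for 10 of the 48 others, against 29.1% of all genes, with median differences of 0.64 and -0.05. The members moved together on these arrays and are not independent of one another.

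**Figure D3:**
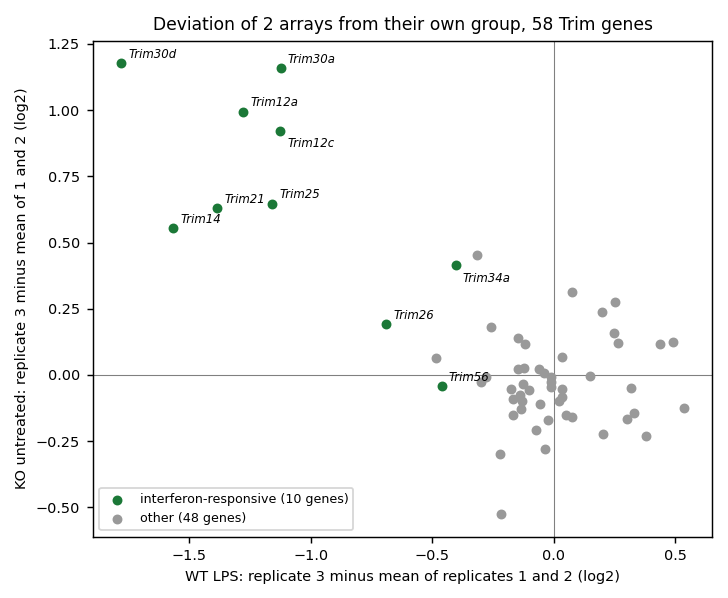
For each of the 58 TRIM genes, the log2 difference of WT LPS replicate 3 from the mean of replicates 1 and 2 (horizontal axis) and the same difference for untreated KO replicate 3 (vertical axis). Interferon-responsive members reach down to -1.78 for WT LPS replicate 3 and up to 1.18 for untreated KO replicate 3, and the other members lie between -0.53 and 0.54 on both axes, a range that also holds Trim34a and Trim56.

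The comparison of KO with WT cells after LPS asked whether loss of IκBζ altered the level reached. Of the 10 interferon-responsive members 2 were higher in KO LPS cells than in WT LPS cells (Trim12c and Trim26), 0 were lower, and the median log2 difference was 0.87. Among all genes 3.28% were called higher and the median was -0.01. Trim12c was the only member called and at least 2-fold higher, against 0.757% of all genes. Over all 58 members 4 were called in either direction, against 8.14% of all genes. Every KO LPS array was above every WT LPS array for 5 of the 10 (Trim12a, Trim12c, Trim21, Trim26 and Trim30a), against 10.3% of all genes. Without WT LPS replicate 3, limma called 0 of the 10 (4 at an unadjusted p under 0.05, against 15.7% of all genes) and the median was 0.37, while 1.68% of all genes were called higher.

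For Trim12c the KO LPS arrays averaged 407 ± 14.1 intensity units and the WT LPS arrays 171 ± 80.8 (SD, n = 3 each), a log2 difference of 1.37 (SE 0.33, limma adjusted p = 0.0259). The WT arrays were spread far more widely than the KO arrays, and dropping any KO LPS array, or WT LPS replicate 1 or 3, ended the call, with 0.99 to 1.72 and limma adjusted p up to 0.0886. For Trim26 the averages were 683 ± 96.7 in KO LPS cells and 394 ± 145 in WT LPS cells, a log2 difference of 0.85 (SE 0.20, limma adjusted p = 0.0257). Dropping KO LPS replicate 3, WT LPS replicate 1 or WT LPS replicate 3 ended it, with 0.62 to 1.13 and limma adjusted p up to 0.0939. Trim21 (1.20, limma adjusted p = 0.0573) and Trim12a (1.16, limma adjusted p = 0.0778) lay just outside the threshold, and both passed without WT LPS replicate 2. Trim56 did not differ detectably (-0.08, SE 0.15, limma adjusted p = 0.834), and the sign of its difference turned when KO LPS replicate 3 (0.058) or WT LPS replicate 2 (0.030) was left out.

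Without both arrays that stood apart, Trim12c was called higher in KO LPS cells (0.99, limma adjusted p = 0.0258). The other 9 were not, the median was 0.37 and 1.56% of all genes were called higher. Without WT LPS replicate 3 alone the difference of Trim12c was the same, but it was not called (limma adjusted p = 0.0886). Untreated KO replicate 3 is in neither group compared, so leaving it out changed the error and not the difference. In the fit without both arrays all 10 rose with LPS in KO cells (median 1.69, 16% of all genes called higher), against a median of 1.51 with all arrays. All 10 also rose in WT cells (median 1.11, 8.53% of all genes). That fit kept KO LPS replicate 3, which has the same number as the dropped KO array. It was the highest KO LPS array in mean log2 level of the 10 (10.68, against 10.52 and 10.59). This setting was chosen after the data were seen.

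Without LPS the genotypes were set against each other in the same way. Of the 58 members 0 were called by limma in untreated KO against untreated WT cells, where 0.0752% of all genes were called; at an unadjusted p under 0.05 there were 3, against 8.68% of all genes. The interferon-responsive members had a median log2 difference of 0.18 and ranged from -0.01 (Trim26) to 0.52 (Trim30d), and 0 of the 10 had groups that did not overlap. Without both arrays that stood apart, these members ranged from -0.22 (Trim25) to 0.17 (Trim12c), with Trim30d at 0.13. Over all 58 members, untreated KO arrays lay wholly above untreated WT arrays for 3 and wholly below for 8, against 4.88% and 11.5% of all genes. The mean log2 level of the 10 was 8.95, 8.80 and 9.54 in untreated KO cells and 8.99, 8.84 and 8.76 in untreated WT cells.

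The difference between the LPS responses of the genotypes was tested as an interaction. For the interferon-responsive members it had a median log2 value of 0.67 and was positive for 9 of the 10, the exception being Trim56 (-0.19), but 0 of the 58 members passed limma's test, against 0.747% of all genes, and 9 had an unadjusted p under 0.05, 2 of them interferon-responsive, against 13.1% of all genes. The largest values were 1.08 for Trim21 (SE 0.49, limma adjusted p = 0.378), 0.89 for Trim12c (SE 0.46, limma adjusted p = 0.449) and 0.86 for Trim26 (SE 0.29, limma adjusted p = 0.211). Without both arrays the median was 0.42. Genes called with LPS in KO cells and not in WT cells are therefore not shown to differ between the genotypes in their LPS response.

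**Figure D4:**
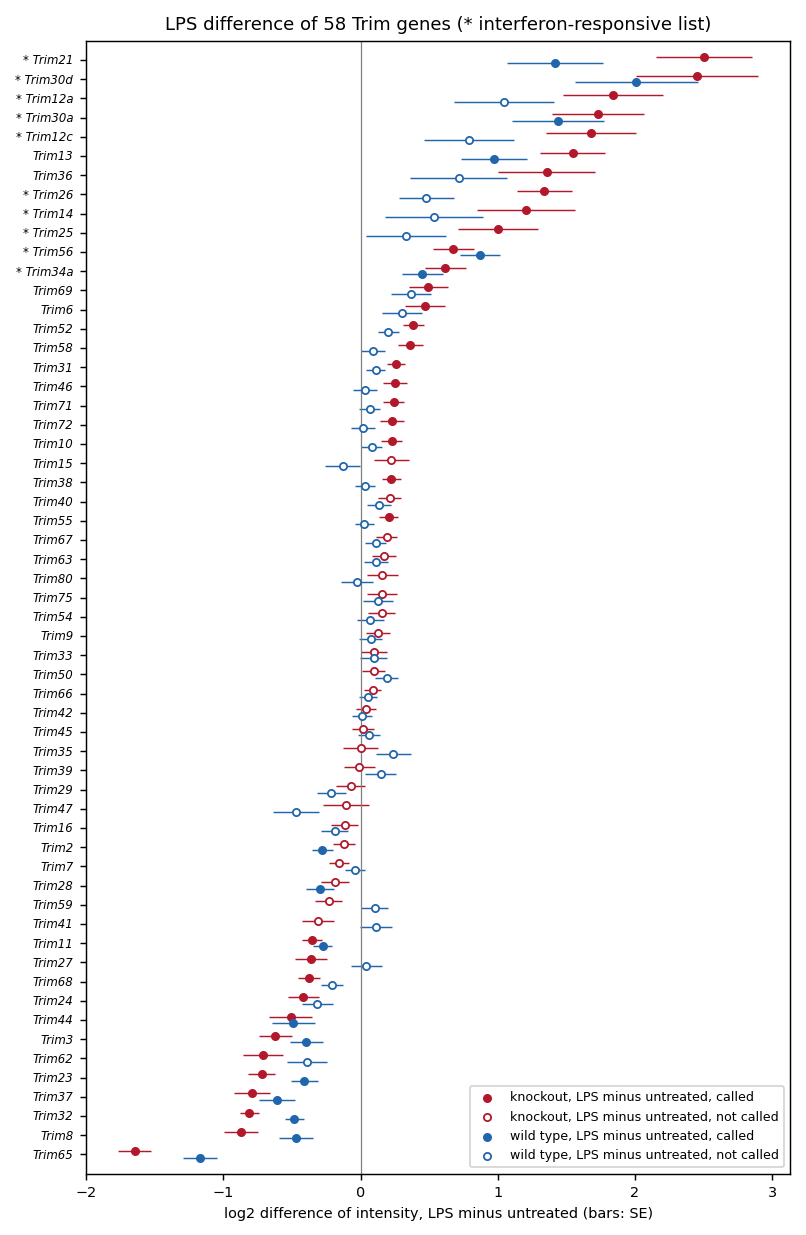
Log2 difference of LPS from untreated cells (horizontal axis) in KO and in WT cells for each of the 58 TRIM genes, with the SE as the bar and a filled marker for a limma adjusted p under 0.05; an asterisk marks the interferon-responsive members. Most of the largest positive differences belong to those members, and Trim65 has the largest negative one in both genotypes.

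Among the 48 other members the LPS response was split. In KO cells 13 were called higher and 12 lower, against 21.9% and 23.8% of all genes, with a median log2 difference of 0.06 (26 and 7 of the members with each array centred on its 75th percentile). In WT cells 1 was called higher and 10 lower, against 9.53% and 18.5% of all genes, with a median of 0.04 (18 and 5 with that centring). Apart from the 1 called higher in WT cells, these shares are near those of all genes and are no result about the other members as a group. Called lower in both genotypes were 8 (Trim3, Trim8, Trim11, Trim23, Trim32, Trim37, Trim44 and Trim65), against 16.6% of all genes, and 21 were called in neither. Called higher in both were 6 of the 58 members, Trim13 and 5 of the interferon-responsive list, against 7.27% of all genes. Over all 58 members 35 were called in KO cells and 16 in WT cells, against 45.7% and 28.1% of all genes. LPS arrays lay wholly below untreated arrays for 13 members in KO cells and 14 in WT cells, against 25.5% and 24.3% of all genes.

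Trim65, a ubiquitin ligase of the RNA sensor MDA5, had the largest fall and was the only member called and at least 2-fold lower, against 5.84% of all genes in KO cells and 3.73% in WT cells. It read 183, 188 and 201 in KO LPS cells, against 653, 517 and 629 in untreated KO cells. It read 222, 219.8 and 299 in WT LPS cells, against 553, 564 and 531 in untreated WT cells. Every LPS array was far below every untreated array in both genotypes. With LPS the log2 difference was -1.65 (SE 0.12, limma adjusted p = 1.59e-06) in KO cells and -1.17 (SE 0.12, limma adjusted p = 2.63e-05) in WT cells, and both calls passed under every setting tried, also whichever array was dropped. The interaction was -0.48 (SE 0.17, limma adjusted p = 0.258).

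Trim8, which regulates the cytokine signalling inhibitor SOCS1, read 670.4, 623 and 480.4 in KO LPS cells, against 1065, 1156 and 995 in untreated KO cells. It read 774, 732 and 793 in WT LPS cells, against 1215, 995 and 986 in untreated WT cells. LPS arrays were below untreated arrays in both genotypes. In log2 units the LPS difference was -0.87 (SE 0.12, limma adjusted p = 0.000167) in KO cells and -0.47 (SE 0.12, limma adjusted p = 0.014) in WT cells, the second lost without WT LPS replicate 2 or untreated WT replicate 1 (limma adjusted p up to 0.0626, at -0.37 or below).

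Trim32, an NHL-domain ligase mutated in a human muscular dystrophy, read 108, 106 and 98.3 in KO LPS cells, against 191, 174 and 183 in untreated KO cells. It read 111, 109 and 107 in WT LPS cells, against 159.8, 145 and 154 in untreated WT cells. Its replicates lay close together, and no groups overlapped between treatments. The log2 difference was -0.81 (SE 0.07, limma adjusted p = 3.77e-06) in KO cells and -0.48 (SE 0.07, limma adjusted p = 0.000247) in WT cells.

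Trim37, the MATH-domain ligase linked to centrosome control, fell by 0.79 on the log2 scale in KO cells (SE 0.13, limma adjusted p = 0.000531) and by 0.61 in WT cells (SE 0.13, limma adjusted p = 0.00462). Trim23, which carries an ARF-type GTPase domain, fell by 0.72 (SE 0.10, limma adjusted p = 0.000121) in KO cells and by 0.41 (SE 0.10, limma adjusted p = 0.00805) in WT cells. The RING-less Trim44 and the NHL-domain gene Trim3 fell less, by 0.51 and 0.62 in KO cells and by 0.49 and 0.40 in WT cells. In WT cells Trim44 did not pass in 6, and Trim3 not in 5, of 12 leave-one-array-out fits, with differences as small as -0.32 and -0.29. With the arrays centred on their 75th percentile, the WT falls of both and the KO fall of Trim44 did not pass. Trim62, a ligase acting on the fungal-sensing adaptor CARD9, fell by 0.71 in KO cells (limma adjusted p = 0.00202), while in WT cells it differed by -0.39 (limma adjusted p = 0.0651).

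**Figure D5:**
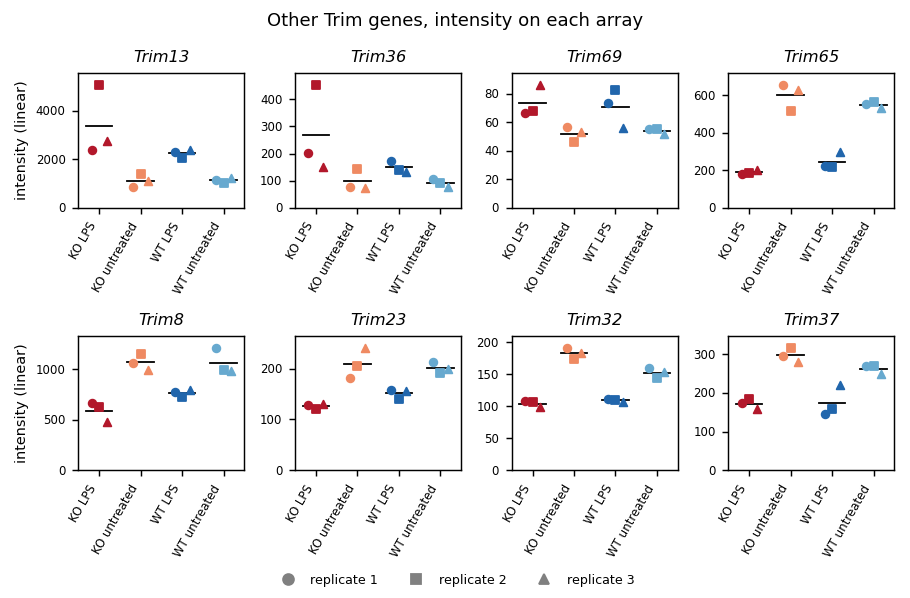
Intensity (linear scale from 0, vertical axis) on each array of 8 TRIM genes outside the interferon-responsive list, by group, with the replicate number as the marker shape and a black bar at the group mean. Trim65, Trim8, Trim23, Trim32 and Trim37 are lower on all LPS arrays than on the untreated arrays of their genotype, and KO replicate 2 stands high for Trim13 and Trim36.

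Trim13, a ligase anchored in the endoplasmic reticulum membrane, was the one gene outside the interferon-responsive list that rose in both genotypes. It read 2389.5, 5039.7 and 2749 in KO LPS cells, against 880.2, 1378 and 1098 in untreated KO cells. It read 2293, 2042 and 2399 in WT LPS cells, against 1149, 1041 and 1245 in untreated WT cells. Groups did not overlap between treatments, and the high KO LPS array was replicate 2, not an array that stood apart in interferon-stimulated genes. With LPS the log2 difference was 1.55 (SE 0.24, limma adjusted p = 0.000287) in KO cells and 0.97 (SE 0.24, limma adjusted p = 0.00906) in WT cells. Both calls passed whichever array was dropped, and without both arrays that stood apart the values were 1.54 and 0.92.

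Trim36, a microtubule-binding ligase of the COS-box class, read 201, 450.2 and 149 in KO LPS cells, against 77.7, 142 and 73.0 in untreated KO cells. It read 172, 141 and 134 in WT LPS cells, against 106, 90.2 and 77.0 in untreated WT cells. KO replicate 2 was the highest of its group in both treatments, and the groups did not overlap in either genotype. In log2 units the LPS difference was 1.36 (SE 0.35, limma adjusted p = 0.0087) in KO cells and 0.71 (SE 0.35, limma adjusted p = 0.163) in WT cells. Without KO LPS replicate 2 the KO value was 0.90 (limma adjusted p = 0.0175).

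The remaining rises were small and lay mostly in dim probe sets. Of the 29 other members at or below the median gene in level, 11 were called higher in KO cells, with log2 differences of 0.20 to 1.36 and Trim36 the highest, against 22.2% of all genes at that level. In WT cells limma called 0 of these 11, against 28.1% of all genes, and 2 had an unadjusted p under 0.05, against 37.8%. These 11 were picked by their call in KO cells, so the counts do not compare the genotypes. Among them Trim69 (0.49, limma adjusted p = 0.0155), which belongs to the SPRY-domain class, and Trim6 (0.47, limma adjusted p = 0.0211), the chromosome 7 neighbour of Trim34a, were next after Trim36, while Trim72 (0.23, limma adjusted p = 0.0494) lay just inside the threshold and did not pass with the replicate number as a block within KO cells (limma adjusted p = 0.0581). Without WT LPS replicate 3 Trim69 passed in WT cells (0.53, limma adjusted p = 0.00878). Its KO call did not pass without KO LPS replicate 3 or untreated KO replicate 2 (0.38 and 0.41). Without both arrays that stood apart, Trim6 passed in both genotypes (0.62 in KO cells and 0.41 in WT cells, limma adjusted p = 0.00252 and 0.0287). The KO call of Trim6 did not pass in 4 of 12 leave-one-array-out fits (limma adjusted p up to 0.0764). In WT cells Trim6 did not pass without WT LPS replicate 3 alone (limma adjusted p = 0.0745). Of the 19 other members above the median gene, 11 fell in KO cells and 8 in WT cells, against 41.1% and 32% of all genes at that level.

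How the arrays were scaled bore on the small changes. With each array centred on its 75th percentile the median of all genes moved to 0.28 in KO cells and 0.19 in WT cells, and of the calls over all genes 76.6% were higher in KO cells and 72.8% in WT cells, against 47.9% and 34% as scaled by the authors. Quantile normalization of these values made it 47.8% in WT cells. For KO LPS against WT LPS cells the share called higher was 52.6% with the 75th percentile and 40.2% as deposited, and for the interaction 55.6% and 40.3%. Of the 58 members, 36 then rose and 7 fell in KO cells, and 26 rose and 5 fell in WT cells. The falls of Trim8, Trim23, Trim32, Trim37 and Trim65 passed in both genotypes, and those of Trim3 and Trim62 in KO cells. Those of Trim11, Trim24, Trim27, Trim44 and Trim68 in KO cells did not pass, nor did those of Trim2, Trim3, Trim11, Trim28 and Trim44 in WT cells. All 10 interferon-responsive members were called higher in KO cells under each scaling.

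Between KO and WT cells after LPS, limma called 0 of the 48 other members higher and 2 lower (Trim27 and Trim41), against 3.28% and 4.87% of all genes; 10 of the 48 had an unadjusted p under 0.05 in either direction, against 22% of all genes, and over all 58 members KO LPS arrays lay wholly below WT LPS arrays for 8, against 14.2% of all genes. Trim41, a ligase of the nucleic acid sensor cGAS, read 613, 448 and 577 in KO LPS cells and 724, 679 and 874 in WT LPS cells, without overlap. Its log2 difference was -0.48 (SE 0.12, limma adjusted p = 0.029), and it no longer passed without KO LPS replicate 2, WT LPS replicate 1 or WT LPS replicate 3 (limma adjusted p up to 0.124, at -0.34 or below). With LPS in KO cells Trim41 differed by -0.31, just outside the threshold (limma adjusted p = 0.0503), and it passed with the replicate block within KO cells (limma adjusted p = 0.0386). Trim27, also a RING ligase, read 467, 401 and 414 in KO LPS cells and 585, 487 and 657 in WT LPS cells, again without overlap, with a log2 difference of -0.42 (SE 0.11, limma adjusted p = 0.0442). Trim27 did not pass in 9 of 12 leave-one-array-out fits, nor with the arrays rescaled, with -0.54 to -0.32 and limma adjusted p up to 0.182 when 1 array was dropped.

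By C-terminal domain, the SPRY class, to which the capsid- and antibody-binding members belong, held 29 of the 58 members, of which 15 rose and 5 fell in KO cells, against 21.9% and 23.8% of all genes, and 4 rose and 2 fell in WT cells, against 9.53% and 18.5%. Of these risers, 9 in KO cells and all 4 in WT cells are interferon-responsive members described above. The 4 bromodomain members are nuclear co-regulators. In that class Trim24 fell in KO cells (-0.42, limma adjusted p = 0.012), Trim28, the partner of KRAB zinc-finger repressors, fell in WT cells (-0.30, limma adjusted p = 0.0481, not passing in 7 of 12 leave-one-array-out fits), and Trim33 and Trim66 were called in neither; neither fall passed with the arrays centred on their 75th percentile. Of the 3 muscle RING-finger genes Trim54, Trim55 and Trim63, Trim55 alone was called, at 0.20 in KO cells (limma adjusted p = 0.0347), a call that did not pass in 5 of 12 leave-one-array-out fits or without both arrays that stood apart. Among the 4 NHL-domain members Trim71, an RNA-binding protein of early development, rose by 0.24 in KO cells (limma adjusted p = 0.023), a call that did not pass in 3 of 12 such fits or without both arrays.

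Related genes outside the family's numbered symbols were read beside it. Pml, also known as TRIM19 and the core of PML nuclear bodies, rose in KO cells (1.40, limma adjusted p = 0.0165) and differed by 0.85 in WT cells (limma adjusted p = 0.158); its WT LPS values of 2036, 3201 and 717 had the same order of replicates as the interferon-responsive members. Mid2 fell in KO cells (-0.81, limma adjusted p = 0.00211), and Mid1 and Mefv were not called. Of 20 measured genes of nucleic acid sensing and interferon signalling, 9 rose and 5 fell in KO cells, against 21.9% and 23.8% of all genes, and 8 rose and 4 fell in WT cells, against 9.53% and 18.5%; 5 of the 20 are also among the 26 interferon-stimulated genes. Ifnb1, which encodes interferon-β, read 55.8, 129 and 134 in KO LPS cells against 48.6, 39.4 and 41.3 in untreated KO cells (log2 difference 1.20, limma adjusted p = 0.00552), and 51.1, 84.9 and 56.9 in WT LPS cells against 49.9, 43.9 and 44.2 in untreated WT cells (0.45, limma adjusted p = 0.282). Its probe set is dim, with untreated mean log2 levels of 5.42 in KO and 5.52 in WT cells. The lowest quartile of genes ends at 6.00. The interaction of Ifnb1 was not called (0.75, limma adjusted p = 0.476). Between KO LPS and WT LPS cells 3 of the 20 were higher in KO cells and 2 lower, against 3.28% and 4.87% of all genes. Higher were Irf1, an interferon-inducible transcription factor (1.72, limma adjusted p = 0.00303), the DNA sensor Cgas (0.66, limma adjusted p = 0.0351) and the receptor kinase Tyk2 (0.45, limma adjusted p = 0.0266). Lower were the interferon regulator Irf3 (-0.48, limma adjusted p = 0.00854) and Mavs, the adaptor with which Trim14 acts (-0.41, limma adjusted p = 0.0413). Of the 26 interferon-stimulated genes 24 rose in KO cells (median 2.23) and 23 in WT cells (median 2.13), and limma called 0 between KO LPS and WT LPS cells, 8 having an unadjusted p under 0.05, against 22% of all genes (median 0.87, and 0.37 without WT LPS replicate 3).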

How the data were processed

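RNA from mouse peritoneal macrophages was read on 12 one-colour Affymetrix arrays. The authors deposited linear intensity values, 1 per probe set. Per the submitters' processing notes, the tool was Affymetrix Expression Console 1.1 and the method RMA; no further settings were known. Of 35556 probe sets, 21789 carried 1 gene symbol, 1621 several and 12146 none in GEO's platform annotation, and where a gene had more than 1 probe set (999 genes) only its brightest on average was kept. Log2 of the intensity was fitted in limma 3.58.1 (R 4.3.3, lmFit and eBayes, two-sided) with 4 group means and 8 residual degrees of freedom. Benjamini-Hochberg adjustment ran over all 19938 genes, with calls at an adjusted p under 0.05. The fit was tested on simulated data. RMA levels distributions, so a shift of most transcripts would not be seen, and it compresses changes of dim probe sets. With 3 arrays a group, their number limits the precision.

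The members and lists were chosen with earlier results of these data known. Values on each array were given for interferon-responsive members and for others called at 2-fold or more; of the rest, up to 4 a structural class, those called between genotypes and those near the threshold were named. Alternatives were another scaling, a filter on dim genes, other variance models, array weights, the replicate block, averaged probe sets, 6 arrays only, stricter calls and leaving out each array. Same-numbered KO LPS and untreated KO arrays deviated together (correlations of deviations from group means 0.32 to 0.57 in 3 of 3 pairs, against -0.48 to 0.13 for unlike numbers), so within KO cells the numbers were taken to pair samples, from the data and not from the labels; no other groups met that bar in all 3 pairs. A block within KO cells was therefore added after seeing the data, for LPS in KO cells and the interaction only, since a comparison of genotypes must keep the spread among KO replicates.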

Additional observations from a re-analysis of the deposited data

Results flagged for a closer look

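A signal appeared in probe sets that carry several gene symbols and therefore belong to no member. The probe set annotated to Gm38525 and Trim30b read 360.0, 398 and 514 in KO LPS cells, against 68.1, 66.2 and 167 in untreated KO cells, a log2 difference of 2.20 (limma adjusted p = 0.00297, over all probe sets with a symbol). The one annotated to Trim5, Trim12c and Trim12a differed by 0.94 (limma adjusted p = 0.0158), and the one annotated to Trim5 and Trim12c by 0.93 (limma adjusted p = 0.00838). In WT cells these 3 differed by 1.06, 0.51 and 0.49 and were not called. Which of the annotated genes gave the signal cannot be told apart.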

How the results depend on the processing

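Counts are of the 58 TRIM genes called with limma. For LPS in KO cells (35) they were 22 at an adjusted p under 0.01, 11 at 2-fold or more and 25 to 37 with 1 array left out. For LPS in WT cells (16) they were 31 with each array centred on its 75th percentile, 35 with array weights, 9 at an adjusted p under 0.01, 4 at 2-fold or more and 10 to 25 with 1 array left out. For KO LPS against WT LPS (4) they were 2 with an intensity trend and robust variance, 10 with array weights, 0 with only the 6 arrays compared (12 at an unadjusted p under 0.05), 1 without both arrays that stood apart, 0 at an adjusted p under 0.01, 1 at 2-fold or more and 0 to 7 with 1 array left out. The comparison of untreated cells gave 0 in all settings tried, and the interaction gave 1 with array weights and 0 to 1 with 1 array left out. With the replicate number as a block, the counts were 35, 15, 6, 0 and 0 for LPS in KO cells, LPS in WT cells, KO against WT with LPS, KO against WT untreated and the interaction; that block ended the WT calls of Trim28, Trim34a and Trim44 and the KO call of Trim72. The block within KO cells gave 35 for LPS in KO cells and 0 for the interaction, ended the KO call of Trim72, added that of Trim41 and changed no other. Reversed was the difference of Trim56 between KO LPS and WT LPS cells (-0.24 to 0.058 with 1 array left out, the upper end without KO LPS replicate 3, and 0.030 without WT LPS replicate 2, against -0.08). The cause of these changes was not tested. Over 68 single-gene results, 1343 values kept direction and side of the threshold, 220 lost the call, 29 gained it and 2 reversed.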
